A study of Mus musculus with 6 samples.

Results

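Triglyceride lipases, their cofactor and inhibitor, and proteins that coat lipid droplets were followed in white adipose tissue of cold-exposed mice. The group comprised 10 genes chosen by name, Pnpla2, Lipe, Mgll, Abhd5, G0s2, Plin1, Plin2, Plin4, Plin5 and Cidec, and every probe set annotated to a single gene of this group was used. Of these genes 9 were matched to 14 probe sets, out of 12393 genes and 22626 non-control probe sets in all, and Plin1 was not analysed here. YY1aKO mice carried floxed Yy1 alleles and a Cre transgene driven by the Adiponectin promoter, a promoter used in adipocytes. Control mice carried the floxed alleles. All were 8 weeks old, on a mixed C57BL6 and 129 background, and all had spent 4 days at 4 °C, so the values describe cold-exposed fat in both groups. There were 3 YY1aKO and 3 control samples, 1 Affymetrix array for each. No label ties a sample to an animal, so p-values measure the spread between these samples. The depot is given as EWAT and visceral in the sample titles and tissue field, but as subcutaneous in the series title and descriptions. As only YY1aKO mice are stated to carry Cre, an effect of Cre and one of Yy1 loss cannot be told apart.

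Fat cells store triglyceride in a lipid droplet and release it by lipolysis, which cold and adrenergic signals activate through cyclic AMP and protein kinase A. PNPLA2 (adipose triglyceride lipase) takes the first fatty acid from triglyceride, LIPE (hormone-sensitive lipase) mainly cleaves the resulting diglyceride, and MGLL (monoglyceride lipase) frees the last fatty acid and glycerol. ABHD5 activates PNPLA2, G0S2 inhibits it, and perilipins on the droplet surface govern the access of these proteins. In brown and other oxidative tissues PLIN5 links the droplet to mitochondria, while CIDEC promotes the fusion of droplets into the large one of the white adipocyte.

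The values are intensities on a linear scale, and a fold change is the mean log2 value in YY1aKO less that in control samples. Yy1 read 373, 323 and 315 in YY1aKO and 1785, 1846 and 1596 in control samples (log2 fold change -2.37 ± 0.11, SE, limma adjusted p = 0.0021), so the labels held on every array. Control 2 stood apart, with a correlation to the other arrays of 0.812 to 0.890 across genes. The 9 measured of 16 listed epididymis markers summed to 227 to 242 in YY1aKO samples, against 219.9, 98019 and 904 in controls 1, 2 and 3. Control 3 thus carried some of this signal too, mostly Gpx5, at 639 against 39.0 in control 1 and 37.2 to 41.5 in YY1aKO samples. The 8 measured of 10 listed adipocyte markers summed to 107444 to 113224 in YY1aKO samples, against 126971, 84794 and 124243 in controls 1, 2 and 3. All 9 genes of the lipase and droplet group were lower in control 2 than in controls 1 and 3, with log2 differences of -0.67 (Plin5) to -1.63 (Plin2) and a median of -1.12, while the median over all 7436 genes tested was -0.05. Lists of other cells of the tissue were lower there too, with medians of -0.94 for adipocyte, -1.45 for endothelial, -1.39 for mesothelium, -0.89 for macrophage and -0.83 for fibroblast markers. In bulk tissue, fewer cells of a type and less of an RNA per cell cannot be told apart. Each comparison is therefore given with all 6 arrays and with control 2 left out, as 3 YY1aKO against 2 control arrays.

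With 6 arrays, 1 of the 9 genes passed the adjusted threshold of 0.05 in limma. Plin5 was lower in YY1aKO, none was higher, and 8 did not pass. At an unadjusted p under 0.05, 3 passed, Plin5, Abhd5 and Plin2. The share of all genes at that unadjusted level was not counted, here or for the lists below, so these counts have no background. At the adjusted threshold the share called was 11.1%, against 20.7% of all genes tested (12.9% higher and 7.8% lower). Without control 2, 2 genes rose (Abhd5 and Plin2), 1 fell (Plin5) and 6 did not pass, or 33.3%, against 45.1% of all genes tested (25.5% higher and 19.6% lower). With 9 genes these shares rest on 1 and 3 calls, and their difference from all genes was not tested. The Abhd5 call rests on the brighter of its 2 probe sets, and the other, given below, did not pass. The median log2 fold change over the 9 genes was 0.30 with 6 arrays and -0.04 without control 2, beside 0.06 and 0.03 over all genes tested. The YY1aKO samples were close to one another, with coefficients of variation of 0.676% (Cidec) to 10.8% (Plin2). Among the 3 control samples these were 35.4% to 55.0%, a spread that includes control 2, the lowest control for all 9 genes. Controls 1 and 3 alone differed by 0.06 (G0s2) to 0.68 (Plin5) on the log2 scale.

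**Figure D1:**
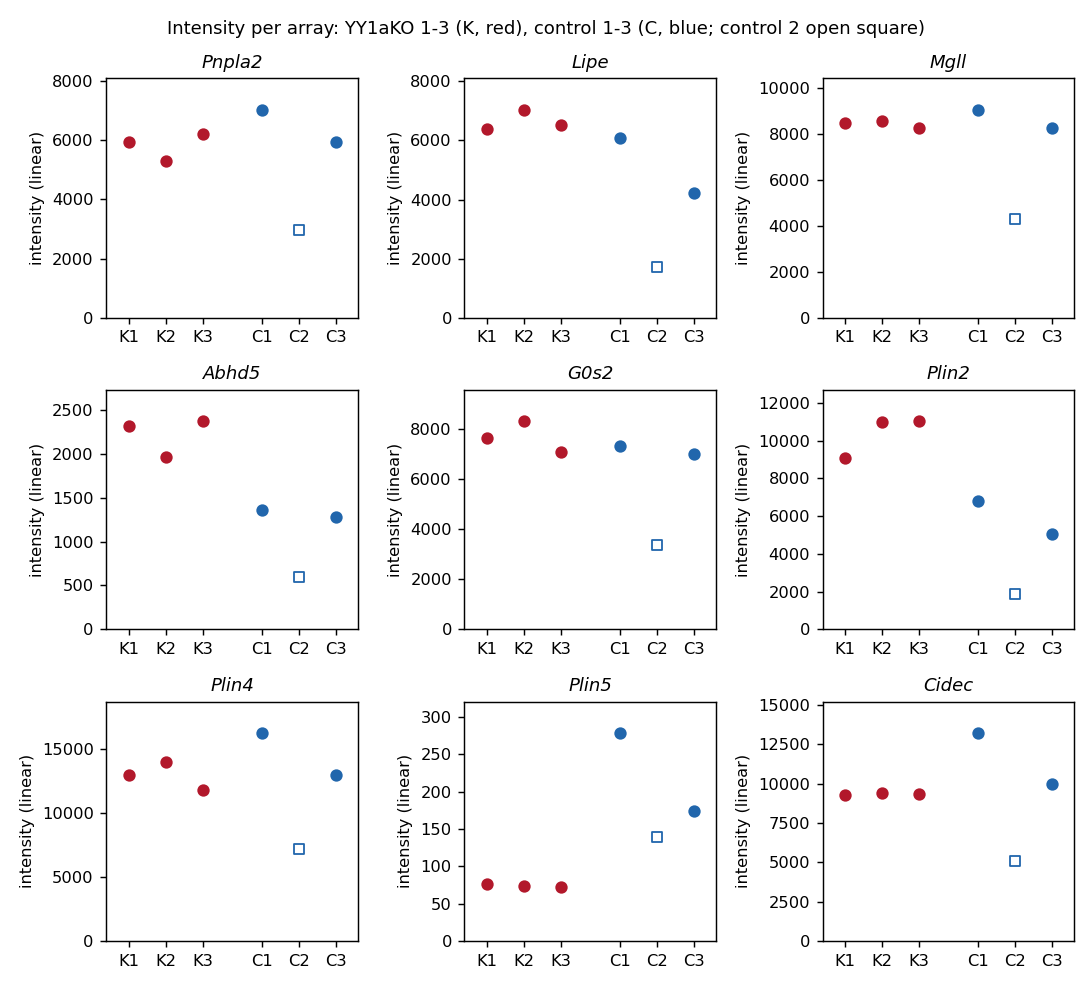
Linear intensity (y axis, from 0) of the probe set that stands for each of the 9 genes, 1 point per array, with YY1aKO samples K1 to K3 in red and control samples C1 to C3 in blue. Control 2 (open square) is the lowest array for every gene except Plin5, and the YY1aKO points lie above all control points for Abhd5, Lipe and Plin2 and below them for Plin5.

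Read by the brightest probe set of each, the 3 lipases of the cascade did not pass in either comparison. The dimmest Mgll set, described further below, rose in both in the fit with no filter. Pnpla2 read 5939, 5303 and 6216 in YY1aKO samples, against 7025, 2969 and 5929.7 in controls 1 to 3. The YY1aKO samples lay within the control range. Its log2 fold change was 0.22 ± 0.33 (SE, adjusted p = 0.66) with 6 arrays and -0.15 ± 0.11 (adjusted p = 0.31) without control 2, where the 95% interval ran from -0.43 to 0.13.

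Lipe read 6395, 7041 and 6509 in YY1aKO samples, against 6093, 1704 and 4219 in controls 1 to 3. All 3 YY1aKO samples were above all 3 controls, although control 1 came close to them. The log2 fold change was 0.91 ± 0.46 (adjusted p = 0.20) with 6 arrays and 0.39 ± 0.16 (adjusted p = 0.097) without control 2. With control 1 left out as well, so that control 3 was the lone control and was assumed to vary like the YY1aKO samples, the value was 0.65 and the adjusted p 0.012. With control 3 left out in its place, control 1 being the lone control, the value was 0.12 and the adjusted p 0.41. A call on this lipase thus depended on which control was used.

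Mgll had 4 probe sets. The brightest read 8499.97, 8577 and 8262 in YY1aKO samples, against 9071, 4309 and 8292 in controls 1 to 3. Apart from control 2, the groups overlapped within a narrow range. On the log2 scale the difference was 0.30 ± 0.29 (adjusted p = 0.49) with 6 arrays and -0.04 ± 0.08 (adjusted p = 0.72) without control 2, where the 95% interval of -0.24 to 0.16 was the narrowest of the group. The same interval for G0s2, the PNPLA2 inhibitor, ran from -0.14 to 0.33.

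G0s2 read 7649, 8302 and 7079 in YY1aKO samples, against 7325, 3378 and 7011 in controls 1 to 3. Controls 1 and 3 lay near the lowest YY1aKO sample. Its log2 fold change was 0.46 ± 0.31 (adjusted p = 0.33) with 6 arrays and 0.10 ± 0.10 (adjusted p = 0.44) without control 2.

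Abhd5, the activator of PNPLA2, was read by 2 probe sets that disagreed. The brighter one, by the mean over all 6 arrays, stands for the gene. Its mean led in YY1aKO samples (2221 against 1304) and not in control samples (1075 against 1176). It was thus picked through the group where it is high. The brighter read 2323, 1968 and 2373 in YY1aKO samples, against 1355, 591 and 1279 in controls 1 to 3. Every YY1aKO sample was above every control. The difference was 1.13 ± 0.33 (adjusted p = 0.062) with 6 arrays and 0.75 ± 0.11 (1.68-fold, adjusted p = 0.0040) without control 2. The other probe set read 1262, 1179.7 and 1469.8 in YY1aKO samples, against 1617, 576 and 1337 in controls 1 to 3, and here the groups overlapped. In the fit of every probe set with no filter, in which 10.2% of probe sets were called with 6 arrays and 24.4% without control 2, its log2 fold change was 0.27 ± 0.39 (adjusted p = 0.70) and -0.18 ± 0.13 (adjusted p = 0.39) in turn. With the mean of both sets standing for the gene, Abhd5 did not pass without control 2 (0.29, adjusted p = 0.091).

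The disagreement was itself tested, over all 3727 pairs of a further probe set with the brightest of its gene, a test chosen after the data were seen. A further probe set was admitted if its mean intensity over all 6 arrays was at least 114. The log2 difference of the dimmer from the brighter Abhd5 set was -0.88, -0.74 and -0.69 in YY1aKO samples, against 0.25, -0.04 and 0.06 in controls 1 to 3. Control 2 lay close to control 3 on this measure, and no YY1aKO sample reached the controls. The groups differed by -0.86 ± 0.10 (SE, adjusted p = 0.0051) with 6 arrays, where 8.1% of pairs were called, and by -0.93 ± 0.09 (adjusted p = 0.0019) without control 2, where 13% were called. It passed with each of the 6 arrays left out (adjusted p of 0.0019 to 0.032). The positions of these probes along the transcript were not used here, so which transcript forms each set reads is not known.

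Of the further Mgll probe sets, both bright ones stayed close to the brightest. They had log2 fold changes of -0.11 and -0.01 without control 2 (adjusted p of 0.43 and 0.97). The dimmest set read 194, 196 and 196 in YY1aKO samples, against 104, 84.7 and 87.5 in controls 1 to 3. The YY1aKO samples were nearly identical and all above the controls, and control 2 did not stand apart. This set rose by 1.09 ± 0.11 (2.13-fold, adjusted p = 0.0096, every probe set, no filter) with 6 arrays and by 1.03 ± 0.10 (adjusted p = 0.0025) without control 2. Its difference from the brightest Mgll set did not pass with 6 arrays (0.79 ± 0.22, adjusted p = 0.081) and passed without control 2 (1.07 ± 0.07, adjusted p = 0.00094). It entered this test of pairs through its YY1aKO readings, since all its control readings lie below the lowest mean intensity admitted (114). The second Pnpla2 set, also dim, read 163.8, 125 and 195 in YY1aKO samples, against 153.8, 52.7 and 125 in controls 1 to 3, and did not differ from the first in its fold change past the threshold (0.44 ± 0.13, adjusted p = 0.092).

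**Figure D2:**
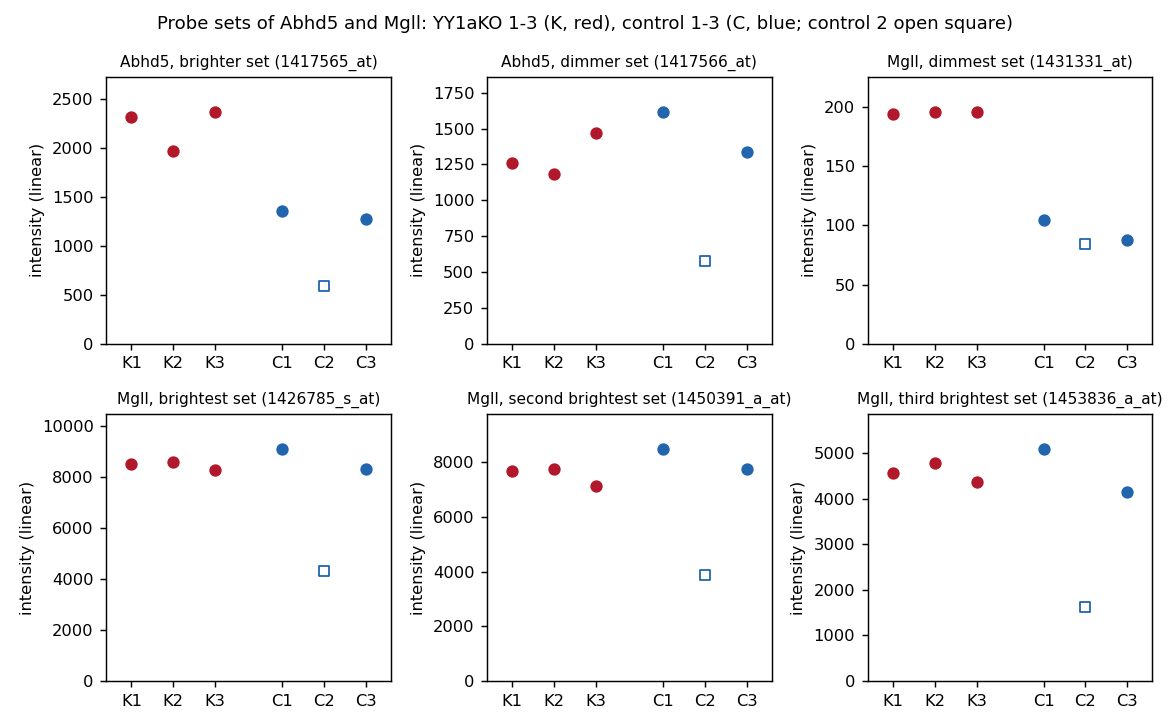
Linear intensity (y axis, from 0) of each probe set of Abhd5 (2) and Mgll (4), 1 point per array, with YY1aKO samples in red, control samples in blue and control 2 as an open square. The YY1aKO points lie above the controls for the brighter Abhd5 set and the dimmest Mgll set, and overlap them for the dimmer Abhd5 set and the brightest Mgll set. The dimmest Mgll set reads 84.7 to 196, against 4309 to 9071 for the brightest.

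Among the perilipins, Plin5 fell in both comparisons, while Plin2 rose in the comparison without control 2. Plin5, the perilipin of oxidative tissues, read 76.5, 73.7 and 71.9 in YY1aKO samples, against 279, 138.8 and 174 in controls 1 to 3. All YY1aKO samples lay far below the lowest control, which was control 2, and the controls spread over a wide range. The log2 fold change was -1.35 ± 0.26 (SE, n = 3 per group, 2.55-fold lower, adjusted p = 0.020) with 6 arrays and -1.58 ± 0.19 (2.98-fold lower, adjusted p = 0.0026) without control 2. With 6 arrays the call was lost without control 3 (adjusted p = 0.066), YY1aKO 1 (0.074), YY1aKO 2 (0.089) or YY1aKO 3 (0.092), with fold changes of -1.33 to -1.41. Without control 2, Plin5 passed under every alternative that tested it and kept 2 controls. Its values there ran from -1.40 to -1.60, with adjusted p of 0.0023 to 0.017. Leaving out control 1 or control 3 as well leaves a lone control, with no spread between controls. The value was then -1.24 without control 1 and -1.91 without control 3. Plin5 was the dimmest gene of the group, ranked 7343 of 12393 by its mean, just inside the brightest 60% that were tested. It passed that filter through the controls, since its YY1aKO readings lie below the lowest mean intensity tested (114), and with no filter its adjusted p was 0.030 with 6 arrays and 0.0050 without control 2. Since detection calls were not used, the share of background in its YY1aKO reading is not known, and its fall may be understated.

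Plin2, the perilipin found in most cell types, read 9060.5, 10972 and 11032 in YY1aKO samples, against 6817, 1896 and 5027 in controls 1 to 3. No YY1aKO sample overlapped a control. Its log2 fold change was 1.36 ± 0.47 (adjusted p = 0.092) with 6 arrays and 0.82 ± 0.16 (1.76-fold, adjusted p = 0.010) without control 2. Without control 2, it passed with any 1 further array left out (0.60 to 1.04, adjusted p of 0.0095 to 0.039), although leaving out control 1 or control 3 leaves a single control, and it did not pass with the replicate number as a block (0.77, adjusted p = 0.061). As macrophages also express Plin2, their markers are given beside it. Apart from Lpl, which fat cells also express, the 10 markers summed to 12065 to 14083 in YY1aKO samples, against 14054, 8201 and 14325 in controls 1 to 3. By limma 0 of 8 tested passed in either comparison, against 20.7% of all genes with 6 arrays and 45.1% without control 2. At an unadjusted p under 0.05 there were 0 with 6 arrays and 2 without control 2. Of these, Trem2 was lower (-0.36) and Gpnmb was higher (1.21 ± 0.48, adjusted p = 0.088). Gpnmb read 438, 603 and 1063 in YY1aKO samples, against 439.95, 608 and 183 in controls 1 to 3. The part of macrophages in the Plin2 value was not tested.

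Plin4, a perilipin of white adipocytes, read 12973, 13958 and 11799 in YY1aKO samples, against 16270.3, 7188 and 12955 in controls 1 to 3. The groups overlapped with and without control 2. Its difference was 0.17 ± 0.30 (adjusted p = 0.73) with 6 arrays and -0.17 ± 0.13 (adjusted p = 0.31) without control 2. Plin4 is a direct protein-coding neighbour of Plin5 on chromosome 17, so adjacent perilipin genes gave a called fall (Plin5) and no call (Plin4).

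Cidec, which fuses droplets, read 9271, 9396 and 9319.99 in YY1aKO samples, against 13234, 5062 and 9964 in controls 1 to 3. The YY1aKO samples lay within 1 narrow band below controls 1 and 3 and above control 2. The log2 fold change was 0.09 ± 0.35 (adjusted p = 0.87) with 6 arrays and -0.30 ± 0.13 (adjusted p = 0.11) without control 2. With control 3 left out as well, so that control 1 was the lone control, it was -0.50 (adjusted p = 0.020), and with control 1 left out in its place it was -0.095 (adjusted p = 0.46). Cidec, Pnpla2, Mgll and Plin4 thus each changed the sign of an uncalled difference when control 2 was left out.

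**Figure D3:**
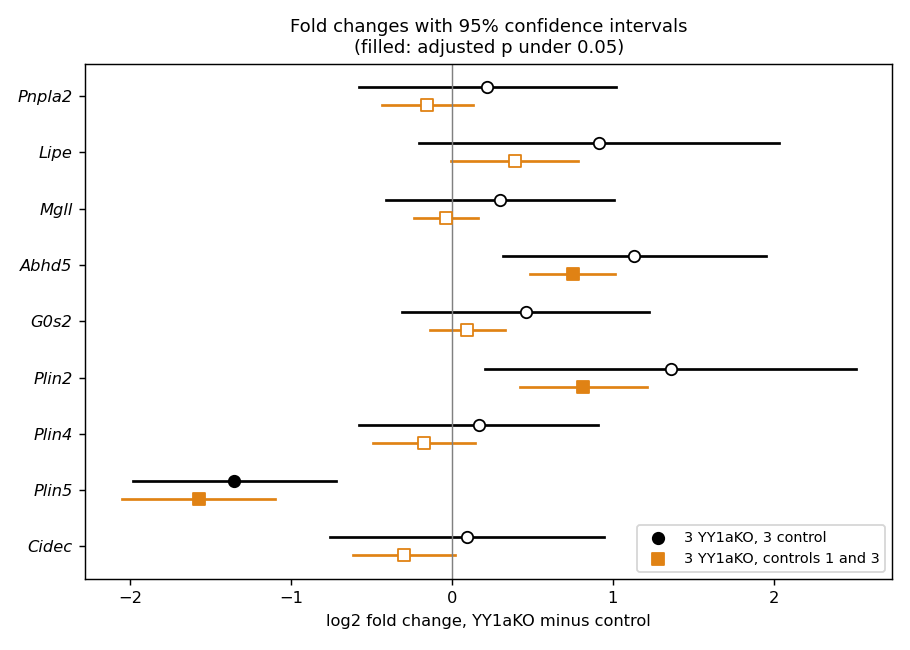
Log2 fold change of YY1aKO over control (x axis) for the 9 genes, with 95% confidence intervals as bars, for all 6 arrays (circles) and without control 2 (squares), filled where the adjusted p was under 0.05. Leaving out control 2 shortens every interval and moves every value to the left, and Plin5 is filled in both comparisons while Abhd5 and Plin2 are filled only without control 2.

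Groups did not overlap for 4 of the 9 genes with 6 arrays (44.4%, against 47.5% of all genes tested) and for 5 without control 2 (55.6%, against 69.2%). The arrays on which Plin5 was high and low were followed most closely, by Pearson correlation of log2 values over the 6 arrays, by Srsf4 (r = 0.997), Ppp2r1b (0.996) and Prtn3 (0.995) among 7435 other genes. For Abhd5 these were Maoa, Tank and Smim11 (r = 0.997 each). With 6 points and a search over so many genes, such values are a description only.

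The promoter sequences of the 3 genes that passed, and of Plin4 as the uncalled neighbour of Plin5, are shown because YY1 is a DNA-binding factor. They are the 250 bases upstream of the start site farthest upstream in RefSeq (GRCm38.p6), written 5′ to 3′ on the gene's strand. The build behind the array annotation is not given in the sources used here. Plin5 lies at chr17:56117549-56117798 (minus strand), Plin4 at chr17:56109783-56110032 (minus), Abhd5 at chr9:122351366-122351615 (plus) and Plin2 at chr4:86670060-86670309 (minus). Capitals mark ATGGC or its reverse complement GCCAT, the core letters of the YY1 motif.
Plin5: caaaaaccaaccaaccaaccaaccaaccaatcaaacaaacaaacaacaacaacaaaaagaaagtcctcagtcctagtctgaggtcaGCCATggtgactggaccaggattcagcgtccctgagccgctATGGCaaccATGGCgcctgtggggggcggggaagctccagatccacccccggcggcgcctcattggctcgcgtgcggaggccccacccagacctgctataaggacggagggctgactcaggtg
Plin4: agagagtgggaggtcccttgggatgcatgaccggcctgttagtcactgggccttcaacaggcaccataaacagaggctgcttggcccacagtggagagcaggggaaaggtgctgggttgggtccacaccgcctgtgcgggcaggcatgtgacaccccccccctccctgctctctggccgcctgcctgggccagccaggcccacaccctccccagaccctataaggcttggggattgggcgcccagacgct
Abhd5: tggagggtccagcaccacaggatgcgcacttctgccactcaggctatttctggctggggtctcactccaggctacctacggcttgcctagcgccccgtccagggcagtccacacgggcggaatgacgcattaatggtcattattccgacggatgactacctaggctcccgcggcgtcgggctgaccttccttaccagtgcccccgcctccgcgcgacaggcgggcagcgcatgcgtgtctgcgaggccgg
Plin2: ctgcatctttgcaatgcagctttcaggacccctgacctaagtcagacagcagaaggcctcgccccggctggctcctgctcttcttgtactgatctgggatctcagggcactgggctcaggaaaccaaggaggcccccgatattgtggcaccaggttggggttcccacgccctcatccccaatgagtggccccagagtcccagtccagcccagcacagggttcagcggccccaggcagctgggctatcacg
The Plin5 window held 3 such matches, starting 164, 123 and 114 bases upstream, and the other 3 windows held none. The window of a second Plin5 start site, not shown, held 2. Of 32851 promoter windows of this length in the table, 32.9% held at least 1 match, 7.27% at least 2 and 1.24% at least 3. Over all 14 windows of the 10 genes, Cidec, Pnpla2 and Plin5 had a match. The longer form AANATGGC (GCCATNTT on the other strand), which contains the core and is found in 3.91% of all windows, matched in none of them. The motif was chosen with the fold changes known, and a match in letters does not show that YY1 binds there.

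Other genes of the pathway came from 3 lists, with 51 of 67 listed genes measured and 42 of those tested. With 6 arrays 2 rose and 3 fell (11.9%, against 20.7% of all genes tested), and without control 2, 5 rose and 8 fell (31%, against 45.1%). Among other lipid droplet proteins, 1 of 14 rose with 6 arrays and none fell, with 2 at an unadjusted p under 0.05. This was Cidea, a relative of CIDEC that is abundant in brown fat, at 2.68 ± 0.42 (adjusted p = 0.014) and 2.30 ± 0.31 (adjusted p = 0.0034) without control 2. Its mean log2 over the controls (200, 63.8 and 99.4) lay below the filter, so it was tested through its high YY1aKO readings. Without control 2, Osbpl2, an oxysterol-binding protein relative, also rose (0.44 ± 0.08, adjusted p = 0.0078), while Hsd17b11, a droplet-associated dehydrogenase (-0.77 ± 0.18, adjusted p = 0.017), and Hilpda, an inhibitor of PNPLA2 (-0.41 ± 0.13, adjusted p = 0.044), fell. With 6 arrays they had 0.02 (adjusted p = 0.98), -0.58 (0.12) and -0.17 (0.64) in turn. Osbpl2 read 1571 in control 2, above the 860 to 914 of YY1aKO samples. Plin3, the remaining perilipin, read 582 to 657 in YY1aKO and 592 to 766 in control samples and did not pass (-0.11 ± 0.13, adjusted p = 0.58).

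Of 16 other lipases and lipase helpers, 1 rose and 3 fell with 6 arrays, all 4 of them in both comparisons. Ddhd2, a phospholipase that also hydrolyses triglyceride, read 2357, 2477 and 2668 in YY1aKO samples, against 1475, 941 and 1311 in controls 1 to 3 (1.03 ± 0.18, adjusted p = 0.017). Ces1d, a carboxylesterase and triglyceride hydrolase of adipocytes, read 2339.7, 1254 and 2711 in YY1aKO samples, against 11263, 5367 and 10190.1 in controls 1 to 3 (-2.09 ± 0.40, adjusted p = 0.021). The related Ces1f had -3.29 ± 0.66 (adjusted p = 0.024). These carboxylesterases are close in sequence, and whether their probe sets share signal is not known. Lmf1, which matures lipoprotein lipase, read 85.7 to 109 in YY1aKO and 166 to 256 in control samples (-0.98 ± 0.20, adjusted p = 0.025). Like Plin5, it passed the filter through the controls, since its YY1aKO readings lie below the lowest mean intensity tested (114). Lpl, the lipoprotein lipase itself, differed by 0.12 ± 0.14 (adjusted p = 0.56) at intensities of 18362 to 24699, near the top of the scale. Without control 2, Abhd6, a monoglyceride hydrolase, rose (0.69 ± 0.16, adjusted p = 0.017) and Angptl4, an inhibitor of lipoprotein lipase, fell (-0.77 ± 0.22, adjusted p = 0.032). With 6 arrays they had 0.98 (adjusted p = 0.059) and -0.11 (0.91) in turn.

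Among 12 tested genes that control lipolysis from upstream, limma called 0 with 6 arrays, and 4 had an unadjusted p under 0.05. Without control 2, Akap1, an anchor of protein kinase A, rose (0.28 ± 0.09, adjusted p = 0.045). Adcy3, an adenylyl cyclase (-0.82 ± 0.18, adjusted p = 0.016), and Foxo1, a transcription factor restrained by insulin (-0.69 ± 0.08, adjusted p = 0.0023), fell. With 6 arrays Akap1, Adcy3 and Foxo1 had 0.47 (adjusted p = 0.11), -0.64 (0.096) and -0.34 (0.44) in turn. Of the genes below the filter, Pde4b, which degrades cyclic AMP (-0.69 ± 0.09, adjusted p = 0.0051), and Prkg1, the cyclic GMP-dependent kinase (-0.46 ± 0.10, adjusted p = 0.024), fell without control 2 in the fit with no filter, where 24.4% of probe sets were called. With 6 arrays that fit gave -0.56 (adjusted p = 0.055) and -0.24 (0.51) in turn.

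**Figure D4:**
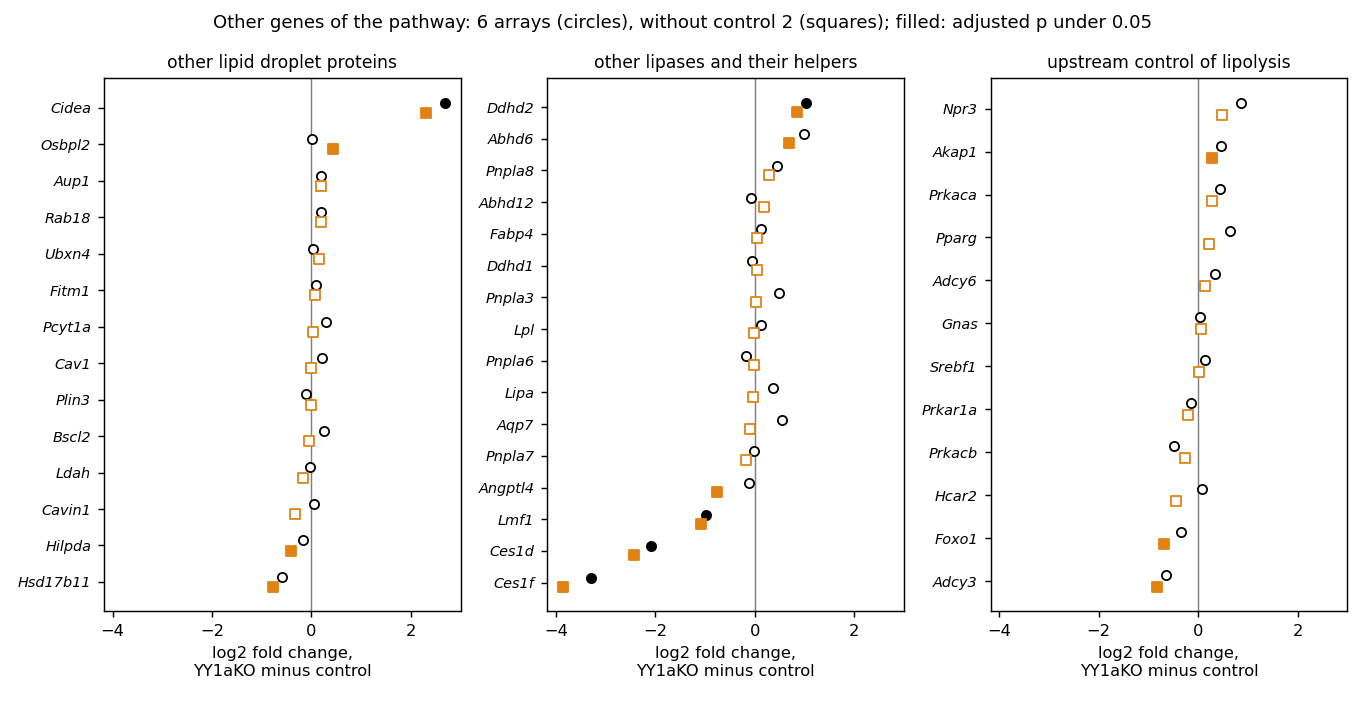
Log2 fold change of YY1aKO over control (x axis) for each tested gene of the 3 pathway lists, ordered by the value without control 2, with circles for all 6 arrays, squares without control 2, and filled symbols where the adjusted p was under 0.05. Most genes lie near 0, with Cidea far to the right and Ces1d and Ces1f far to the left.

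Markers of other cells were measured beside these values. Without control 2, 4 of 7 endothelial, 4 of 7 fibroblast and 1 of 4 mesothelium markers were lower (57.1%, 57.1% and 25% of each list), 0 were higher, and 1 of 8 adipocyte markers (Retn) was lower (12.5%), against 19.6% of all genes lower. With 6 arrays limma called 0 in these 4 lists, and 0, 2, 0 and 1 had an unadjusted p under 0.05. Of 3 tested brown and beige markers, Cidea and Cox7a1 rose in both comparisons, against 12.9% and 25.5% of genes higher, and Cox8b did not pass (0.22 with 6 arrays and -0.46 without control 2). In control samples the mean log2 of Cidea and of Cox7a1 (112, 92.5 and 140 in controls 1 to 3) lay below the filter. Both were thus tested through their high YY1aKO readings. Ppargc1a (163, 134 and 242 in controls 1 to 3) was left out through its low ones. The share that rose among tested markers therefore depends on the filter. Of the 5 below the filter, Ucp1 rose (2.45, adjusted p = 0.041, and 2.42, adjusted p = 0.0295, in turn) and Ppargc1a fell (-2.93, adjusted p = 0.012, and -3.12, adjusted p = 0.0034) in the fit with no filter, and Elovl3, Dio2 and Tnfrsf9 did not pass. Skeletal muscle markers were all below the filter and summed to 246 to 248 in YY1aKO samples and 221 to 238 in control samples. The part of these cell types in the lipase and droplet values was not tested.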

How the data were processed

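Total RNA of 3 YY1aKO and 3 control samples was labelled as biotinylated cRNA and hybridised to 1-colour Affymetrix arrays, per the labels' protocols. The authors deposited an intensity for each probe set on each array, summarised with RMA according to the submitters' processing notes. RMA gives all arrays a like distribution and would hide a shift common to most genes. These intensities run from 6.09 to 30322, which is a linear scale although RMA works in log2, and the step between is not stated. Their log2 was taken here.

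Probe sets with 1 gene symbol in the platform annotation (20380 of 22626, with 64 array controls left out) were used. Each gene was represented by its brightest, by the mean over all arrays, YY1aKO included. The brightest 60% of 12393 genes (7436, mean intensity of at least 114) were tested with limma 3.58.1 in R 4.3.3 (lmFit, eBayes), two-sided, with Benjamini-Hochberg adjustment over all of them and a threshold of 0.05. All 9 genes passed this filter. Other probe sets, and genes below the filter, take their values from a fit of all 22626 probe sets. The number of arrays limits the precision. The scripts were tested on simulated data. The genes and lists were chosen with earlier results of these data known. The text names every gene of the group, every pathway gene that passed, Yy1, and the 3 genes most alike in pattern to the 2 genes of the group with the smallest p. Plin3, Lpl and the named markers are exceptions, named for context after their values were seen. Alternatives were the choice of probe set, filter, normalization, an offset, the variance model, array weights, a replicate block, each array left out and a threshold of 0.01.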

Additional observations from a re-analysis of the deposited data

How the results depend on the processing

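Of 325 values of single genes and probe-set differences under the alternatives, 299 kept their direction and side of the threshold, 9 lost a call, 7 gained one and 10 changed sign, all 10 for uncalled values. Some of the 299 could not change. An uncalled value stays uncalled at a threshold of 0.01. For a gene with 1 probe set, the choice of probe set leaves the fold change as it was. With 1 array left out of 6, Pnpla2 ran from -0.15 to 0.47, Mgll from -0.038 to 0.50, Plin4 from -0.17 to 0.42 and Cidec from -0.30 to 0.39, each lowest without control 2 and highest without control 1. Array weights gave -0.083, -0.084 and -0.21 for Pnpla2, Plin4 and Cidec. In the comparison without control 2, the mean of all probe sets gave 0.021 for Pnpla2 and 0.22 for Mgll, and with 1 further array left out Mgll ran from -0.10 (control 3) to 0.026 (control 1). With 6 arrays 1538 of all genes passed. Every probe set as its own feature gave 2498 calls (more features were tested), array weights 2628 and a threshold of 0.01 gave 212, and with 1 array left out the count ran from 24 (without YY1aKO 3) to 3353 (without control 2). Of the 9 genes, 0 to 3 passed with 1 array left out, 3 with array weights, 0 at 0.01 (1 lower at 0.05) and 0 among the brightest 40% of genes, which leave out Plin5. Without control 2, 3353 genes passed, against 5455 with every probe set on its own and 1601 at 0.01. The replicate numbers are shared by both groups, but samples with the same number did not deviate together (correlations of -0.14, -0.13 and -0.12). With the replicate block 54 genes and 0 of the 9 passed with 6 arrays (Plin5 -1.35, adjusted p = 0.069), and 1789 genes and 2 of the 9 passed without control 2, where Plin2 had 0.77 and an adjusted p of 0.061. The cause of the other changes was not tested. Signal over background limits Plin5, Lmf1 and the dim Mgll and Pnpla2 probe sets, since detection calls were not used.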
